A study of Mus musculus with 2 samples.

Results

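The genes described here encode the machinery of oxidative phosphorylation, and they were taken by symbol from a table of single pancreas cells. The rule kept every symbol that begins with mt-, Nduf, Uqcr or Atp5, with Cox and a digit from 4 to 8, or that reads Sdha, Sdhb, Sdhc or Sdhd. It found 102 of the 14789 gene symbols in the table, 89 of them encoded in the nucleus and 13 in the mitochondrial genome. The nuclear members are 36 genes of complex I, 4 of complex II, 8 of complex III, 15 of complex IV, 15 of complex V and 11 that are not subunits, of which 7 are assembly factors. The mitochondrial members are 7 genes of complex I, 1 of complex III, 3 of complex IV and 2 of complex V. All 102 members had at least 1 unique molecular identifier (UMI, the tag that marks 1 captured RNA molecule), and 13 nuclear members had fewer than 50 over all cells.

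The study sorted red fluorescent cells from the pancreas of adult Tff2CreERT2; R26-tdTomato mice, in which tamoxifen activates a Cre recombinase driven by Tff2 and the Cre switches on the tdTomato reporter. The labels give a single group with 2 biological replicates, no untreated group, and a sort for cells carrying EpCAM and RFP but neither CD45 nor TER119, followed by 10x Genomics libraries. Tff2 encodes a small secreted trefoil peptide, and descendants of a cell that once expressed it keep the reporter. Cells could not be tied to the replicates, so the table was read as 1 sample, no test between groups of cells was made, and all intervals below are exact 95% intervals that cover counting error only.

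Oxidative phosphorylation passes electrons from NADH and succinate through complexes I to IV to oxygen and uses the resulting proton gradient to make ATP at complex V, the ATP synthase. The mitochondrial genome supplies a few core subunits of complexes I, III, IV and V, while the nucleus supplies all of complex II and the many remaining subunits, so both genomes have to contribute to each of the mixed complexes. Acinar cells of the pancreas make and package digestive enzymes, a protein output that consumes much ATP.

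The 728 cells held 2353008 UMIs, from 1004 to 53222 per cell with a median of 2085.5. Nuclear members made up 1.499% of all UMIs (35266) and mitochondrial members 2.61% (61321), and the highest mitochondrial percentage in a cell was 29.7%. The last digit of a cell's barcode was 1 in 667 cells and 2 in 61, and the labels leave its meaning unstated. The endings share 7 barcodes, and all 14 cells that carry them are acinar. In each such pair the cell under ending 2 was the deeper one, with 6103 to 10606 UMIs against 1034 to 2138 under ending 1, so the main values for acinar cells of ending 2 are given with and without them.

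Cells were placed in the first class whose rule they met. Acinar cells had at least 10% of their UMIs from Ctrb1, Try4, Cela1 and Prss2 (270 cells), ductal cells at least 2 UMIs of Krt19 and Epcam (32 cells), endothelial cells at least 5 of Kdr, Cdh5, Pecam1 and Egfl7 (161 cells), and B cells at least 2 of Cd79a, Cd79b and Ms4a1 (101 cells). The remaining 164 cells are called other cells. More than 1 rule was met by 9 cells, 8 of which went to the acinar class. Sets of 10 markers that the rules did not use followed the class names. The acinar set took 27.4% of acinar UMIs and 0.676% to 0.881% in the other classes, the ductal set 2.27% of ductal UMIs, the endothelial set 1.24% of endothelial UMIs and the B set 3.56% of B UMIs. The sort was for EpCAM-positive, CD45-negative cells, yet 161 cells met the endothelial rule, 101 the B cell rule and 77 a rule for T or NK cells.

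The share of oxidative phosphorylation UMIs that came from the mitochondrial genome, called the balance here, was lowest in acinar cells and highest in B cells. Summed over the cells of a class, it was 56.2% in acinar cells (95% interval 55.6% to 56.9%). It was 63.3% in endothelial cells (62.7% to 64.0%), 64.7% in other cells (64.1% to 65.4%), 66.4% in ductal cells (65.6% to 67.2%) and 72.0% in B cells (71.2% to 72.8%). Because the balance is a ratio within the members, the digestive enzyme transcripts that fill most of an acinar library do not enter it.

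Single cells spread far more widely than these intervals. Acinar cells ran from 0% to 100% with a median of 59.1% and quartiles of 43.5% and 71.4%. Endothelial cells had a median of 60.1% (quartiles 52.3% and 68.8%), ductal cells 64.1% (52.0% and 73.1%), other cells 63.4% (54.5% and 73.6%) and B cells 71.3% (65.5% and 75.9%). The interquartile ranges of all 5 classes overlapped. With cells weighted equally the mean was 58.5% in acinar cells and 60.4% to 70.7% in the other classes. With every cell thinned to 1000 UMIs, the balance of acinar cells was 68.4%, above endothelial and other cells (63.5% and 67.8%) and below ductal (69.8%) and B cells (72.8%). The SD over cells was 20.4 percentage points in acinar cells and 9.16 in B cells. Acinar cells had a median of only 54.5 member UMIs per cell (lowest 5), so counting noise adds to their spread.

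**Figure D1:**
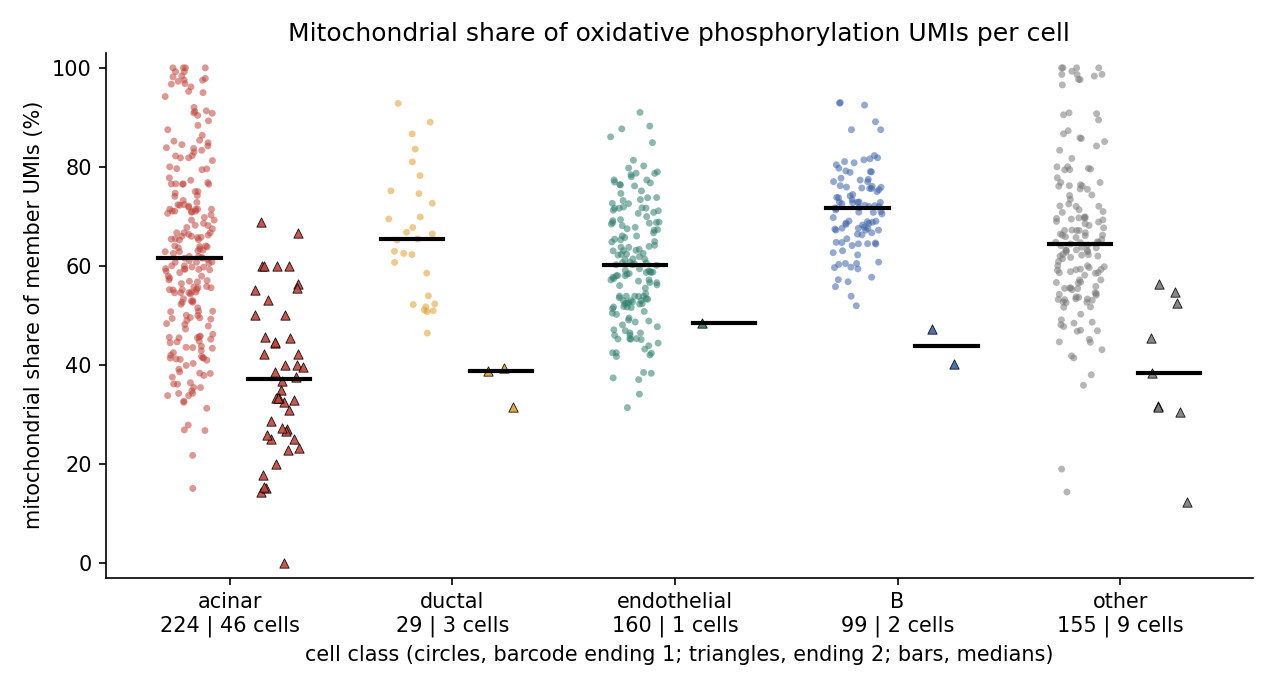
Mitochondrial share of member UMIs in each cell (y axis, %) for the 5 cell classes (x axis), with circles for barcode ending 1, triangles for ending 2 and black bars for medians. Medians under ending 1 lie between 60.1% and 71.6%, and the 46 acinar cells of ending 2 have a median of 37.2%.

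The barcode ending moved with the balance in all 5 classes. Acinar cells had a balance of 57.9% under ending 1 (224 cells, median of single cells 61.6%) and of 36.8% under ending 2 (46 cells, median 37.2%). Without the cells whose barcodes occur under both endings the sums were 58.0% (217 cells) and 36.7% (39 cells), so the gap was as large without them. Ductal cells had 68.1% under ending 1 against 35.2% in 3 cells of ending 2, B cells 72.8% against 41.4% in 2 cells, other cells 65.7% against 39.8% in 9 cells, and endothelial cells 63.4% against 48.4% in 1 cell. That 1 endothelial cell lay within the range of single endothelial cells of ending 1, 31.3% to 91.0%. Within ending 1 the summed balance kept acinar cells lowest, whereas their median (61.6%) was above that of endothelial cells (60.1%). The reason for the gap was not tested.

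The gap between endings was larger in the mitochondrial than in the nuclear part. With all UMIs as the total, acinar cells of ending 2 had a mitochondrial level of 5232 counts per 1000000 UMIs (CPM) against 12008 under ending 1, a log2 ratio of -1.20 (-1.31 to -1.09). Their nuclear members stood at 8982 CPM against 8725, a log2 ratio of 0.04 (-0.05 to 0.13). Without the shared barcodes the acinar cells of ending 2 had 4964 and 8565 CPM. With acinar markers out of the total the log2 ratios were -0.96 (-1.07 to -0.85) for mitochondrial and 0.28 (0.19 to 0.37) for nuclear members. Cells outside the acinar class had 41658 mitochondrial and 20912 nuclear CPM under ending 1, and 18006 and 28286 under ending 2. Single genes were compared between the endings in acinar cells only, where 59 nuclear members had at least 50 UMIs. Of these, 0 were higher and 4 lower by 2-fold or more under ending 2, where 5.43% of all genes tested were higher and 27.9% lower. Of 12 mitochondrial members tested in acinar cells, 3 were higher (mt-Atp8 with mt-Nd5 and mt-Nd4l) and 7 lower. Malat1 and Neat1, long RNAs that stay in the nucleus, were also lower in acinar cells of ending 2, by 2.54 and 4.12 on the log2 scale.

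Within acinar cells of ending 1 the balance fell with depth. It was 83.7% in the 67 cells with 1000 to 1500 UMIs, 68.7% in 52 cells with 1500 to 2500, 62.8% in 55 cells with 2500 to 5000 and 45.04% in the 50 cells with 5000 or more. A set of 6 shallow cells, each with 10% or more of its UMIs from the mitochondrial genome and together at a balance of 98.2%, weighed on the first value, which was 73.4% without them. Leaving out these 6 cells brought the balance of all acinar cells from 56.2% to 53.3%. Acinar cells of ending 2 had 36.6%, 39.1% and 35.1% in the first 3 bands, each of which held fewer than 20 cells, and 36.9% in the deepest, whose 7 cells are all cells with shared barcodes. A fall of the summed balance with depth under ending 1 was not limited to acinar cells. Ductal cells had 77.8%, 68.8% and 59.8% in the 3 deeper bands (7, 17 and 5 cells). Their medians of single cells fell less, at 69.5%, 65.4% and 60.7%. The bands of ductal and other cells were not repeated without cells at 10% or more mitochondrial UMIs. The sums of other cells went from 81.0% through 67.6% and 62.9% to 55.3% over the 4 bands. The median of single other cells fell to 62.2% at 2500 to 5000 UMIs but was 80.8% in the 14 deepest cells. Across the 155 other cells of ending 1, Spearman's rho between the balance and UMIs per cell was -0.01. Other cells are a mixed class that includes 16 erythroid cells, with a median of 5371.5 UMIs and a median balance of 90.2%. The depth bands and the rho were not repeated without erythroid cells, so they do not describe depth within 1 cell kind. Endothelial cells stayed between 61.7% and 66.1%, and B cells had between 66.1% and 76.3%.

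Levels of 3 groups of transcripts differed along the same bands. From the shallowest to the deepest band of ending 1, and on a total that leaves out acinar marker genes, mitochondrial members went from 149342 to 30916 CPM, nuclear members from 29107 to 37729, and ribosomal protein genes from 20.3% to 34.2% of UMIs. Without the 6 shallow cells the shallowest band had 90153 CPM of mitochondrial members, 32654 of nuclear members and 22.8% ribosomal UMIs. Across the 270 acinar cells Spearman's rho between the balance and the ribosomal share was -0.76, and it was -0.74 in the 224 cells of ending 1 and -0.27 in the 46 of ending 2. The balance and the number of UMIs per cell had a rho of -0.43, which was -0.59 under ending 1 and -0.01 under ending 2. These relations are descriptions over cells that share libraries, and the balance and the ribosomal share are both affected by how many mitochondrial UMIs a cell holds.

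**Figure D2:**
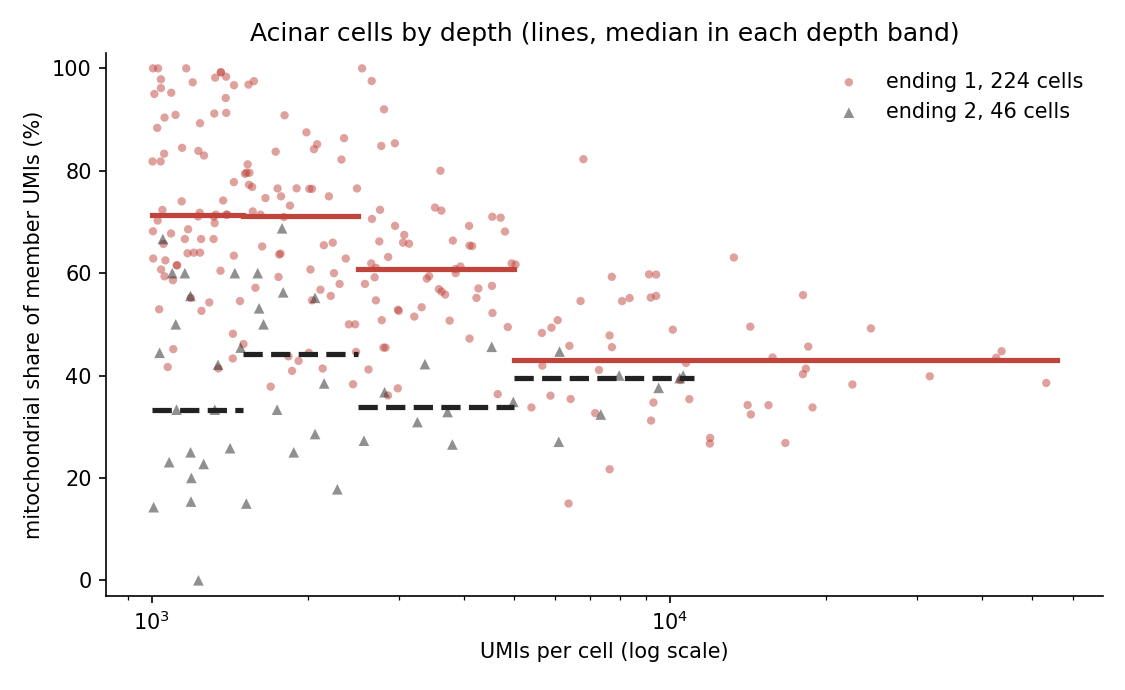
Mitochondrial share of member UMIs (y axis, %) against UMIs per cell (x axis, log scale) for 270 acinar cells, by barcode ending, with lines for the median in each depth band (solid, ending 1; dashed, ending 2). The ending 1 medians go from 71.4% in the shallowest band to 43.0% in the deepest.

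Tff2, the gene whose promoter drives the Cre, gave a further split of the acinar class. The 35 acinar cells with under 2000 Tff2 CPM had a balance of 85.6% (median of single cells 84.2%). It was 59.6% in 94 cells with 2000 to 6000, 49.2% in 113 cells with 6000 to 10000, and 56.2% in 28 cells with more. Under ending 1 alone the same bands gave 86.3%, 62.3%, 50.2% and 57.6%. The low band had 22620 nuclear member CPM outside the acinar markers, against 33192 to 39624 in the others, and a ribosomal share of 20.6% against 31.8% to 32.8%. The Tff2 bands were not split by depth, nor repeated without the 6 cells at 10% or more mitochondrial UMIs. Whether these differences go with Tff2 itself was not tested.

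Whether acinar cells had fewer or more oxidative phosphorylation transcripts than other cells depended on the total. With all UMIs as the total, acinar cells had 8754 nuclear member CPM, against 37201 in ductal, 23011 in endothelial, 17296 in B and 17076 in other cells. Their mitochondrial members stood at 11244 CPM, against 73625, 39767, 44433 and 31349 in the same order. Acinar cells were thus lowest on this scale for both parts, while acinar marker genes took 75.9% of their UMIs and 1.83% to 2.27% elsewhere.

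With 31 acinar marker genes taken out of the total, acinar cells had 36249 nuclear member CPM. The other classes had 37895 (ductal), 23547 (endothelial), 17643 (B) and 17450 (other). The log2 ratio of acinar over the other class went from -2.09 to -0.06 for ductal, from -1.39 to 0.62 for endothelial, from -0.98 to 1.04 for B and from -0.96 to 1.055 for other cells. For mitochondrial members it went from -2.71 to -0.69, from -1.82 to 0.19, from -1.98 to 0.04 (interval -0.00 to 0.08) and from -1.48 to 0.54. On either total ductal cells, which line the tubes that carry pancreatic juice, had the highest level of both parts.

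Other contents of the libraries moved with these levels, and their part in them was not tested. Malat1 and Neat1 summed to 951 CPM over all UMIs in acinar cells and to between 23443 and 36301 in the other classes. With acinar markers out of the total they summed to 3940 CPM in acinar cells and to between 23957 and 37146 elsewhere. Ribosomal protein genes took 31.6% of acinar UMIs outside the acinar markers, and 19.0%, 14.8%, 38.9% and 27.9% in ductal, endothelial, B and other cells. Less RNA per cell and fewer captured molecules of a kind cannot be told apart from these counts.

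**Figure D3:**
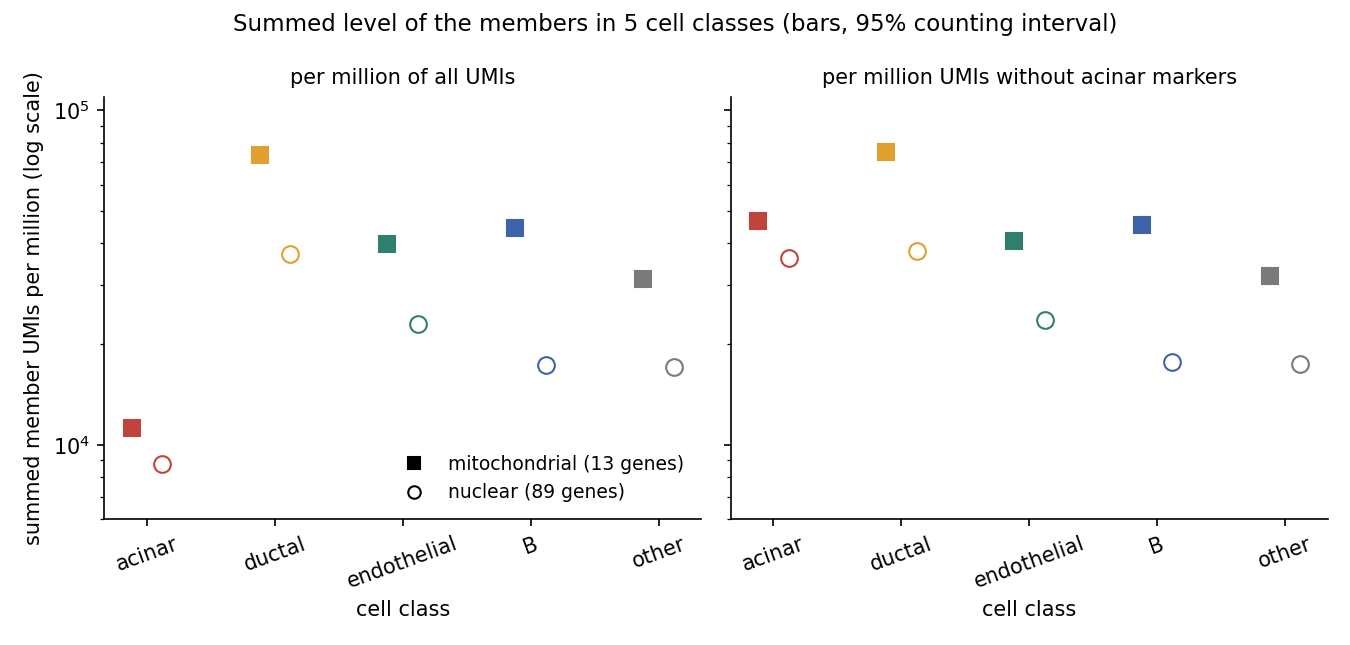
Summed level of the nuclear and mitochondrial members in CPM (y axes, log scale) in 5 cell classes, with all UMIs as the total (left) and with acinar marker genes left out of it (right); the 95% counting intervals are smaller than most symbols. Nuclear members of acinar cells stand at 8754 on the left and 36249 on the right.

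The choice of total moves every gene's ratio in a comparison by the same amount, so single genes are given on both. A gene was called where it differed by 2-fold or more, among genes with at least 50 UMIs over the 2 classes compared. With all UMIs as the total, 63 of 66 nuclear members were lower in acinar than in ductal cells, where 72.4% of the 1014 genes tested were lower, and their median log2 ratio was -2.34 against -2.09 over all genes. The counts were 55 of 69 against endothelial cells (80.2% of all genes; medians -1.57 and -2.65), 36 of 64 against B cells (61.1%; -1.16 and -1.62) and 46 of 69 against other cells (70.1%; -1.18 and -1.79). Uqcrq was the 1 nuclear member called higher, against B and against other cells, where 18.7% and 10% of all genes were higher; against ductal and endothelial cells 0 were, with 10.7% and 7.22% of all genes.

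With acinar markers out of the total, 3 nuclear members were higher and 10 lower against ductal cells, where 27.9% and 24.8% of all genes were. Against endothelial cells 16 were higher and 3 lower (20.2% and 43% of all genes), against B cells 29 and 1 (39.5% and 22.3%), and against other cells 25 and 1 (30.6% and 25.1%). The median nuclear member stood at -0.32, 0.45, 0.87 and 0.84, beside -0.06, -0.63, 0.40 and 0.22 over all genes. The share of members called higher against endothelial, B and other cells was thus close to the share of all genes, so these counts set the members apart little, and few members were called lower.

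**Figure D4:**
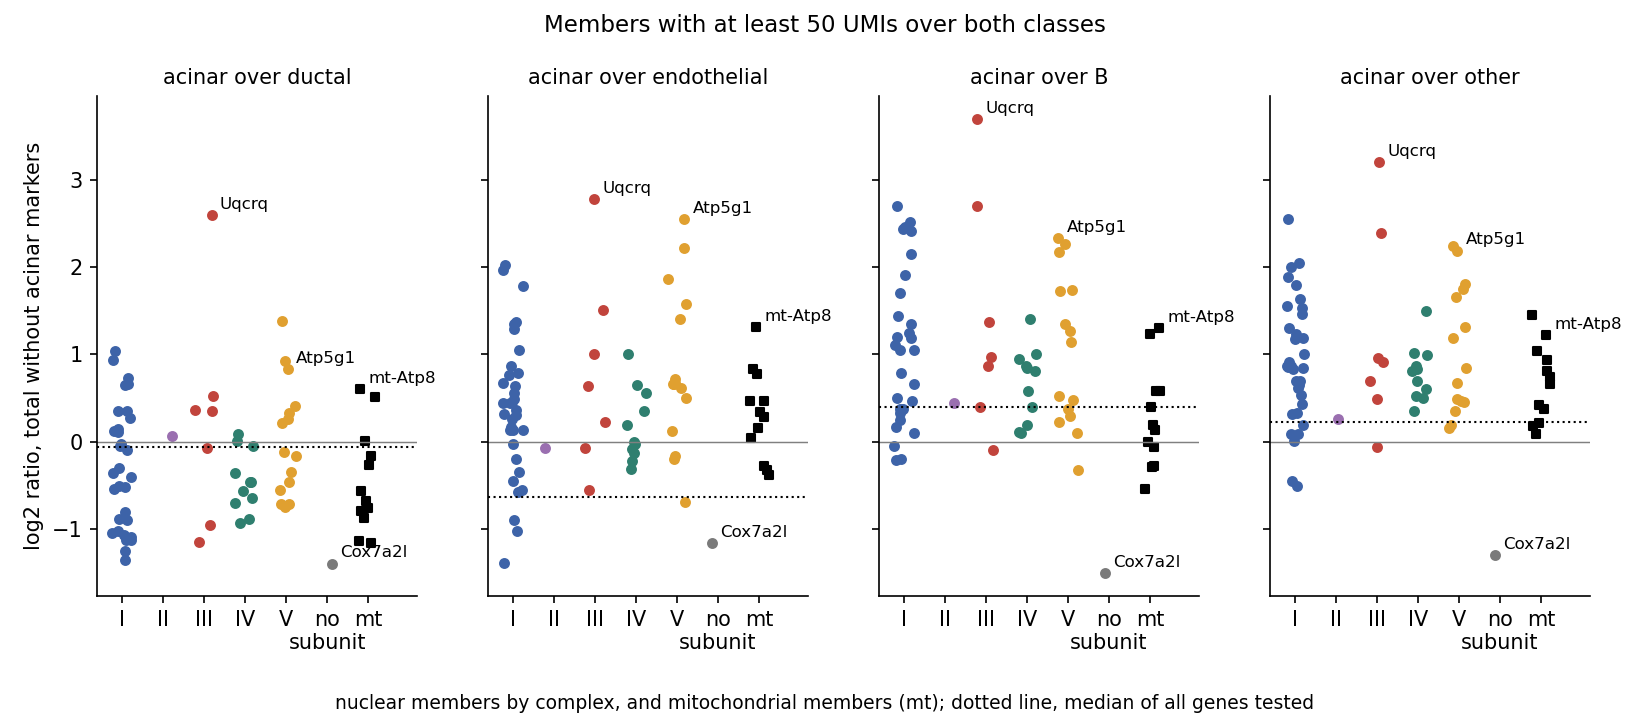
Log2 ratio of acinar over each other class, with acinar markers left out of the total (y axes), for members with at least 50 UMIs over both classes, by complex (x axes; mt, mitochondrial members); the dotted line is the median of all genes tested. Uqcrq lies between 2.59 and 3.69 and Cox7a2l between -1.50 and -1.16 in the 4 panels.

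To compare the make-up of the nuclear part without either total, each gene was taken as a share of the nuclear member UMIs of its class. Complex III took 16.7% of them in acinar cells and between 10.4% and 11.02% in the other classes. Complex V took 29.6% against 24.0% to 26.9%. Complex IV took less, 20.97% against 25.5% to 28.1%, and complex I was alike at 31.0% against 29.4% to 33.5%. Of the 64 nuclear members with enough UMIs in every comparison, 2 had a share at least 2-fold higher in acinar cells than in each of the other 4 classes (19% of 853 genes so tested) and 2 a share at least 2-fold lower (10.6%).

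Levels of single genes below are CPM with acinar markers left out of the total. Complex I takes electrons from NADH and is the largest of the complexes. Of its 34 nuclear members tested against endothelial cells with acinar markers out of the total, 7 were higher and 2 lower, beside 20.2% and 43% of all genes. Ndufa2, an accessory subunit, had 1317 CPM in acinar cells, and 831, 515, 241 and 378 in ductal, endothelial, B and other cells. Ndufs6, an accessory subunit that binds zinc, had 805 against 481, 197, 138 and 137. Ndufv3, a small flavoprotein subunit, had 741 against 359, 189, 133 and 185. Ndufa3, another accessory subunit, had 561 against 742, 401, 404 and 358. The first 3 were above every other class, though against ductal cells Ndufa2 and Ndufs6 were under 2-fold, at log2 ratios of 0.66 (0.34 to 0.99) and 0.73 (0.33 to 1.18).

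Other complex I genes went the opposite way or split the classes. Ndufc2, a membrane-arm subunit, had 127 CPM in acinar cells, 301 in ductal and 335 in endothelial cells, but 118 in B and 102 in other cells. Ndufa8 had 180 in acinar and 366 in endothelial cells. Ndufb2 had 314 in acinar cells and 46.1 in B cells, where it rested on 9 UMIs. Ndufb3, with 29 UMIs in acinar cells, made up 0.28% of their nuclear member UMIs against 0.59% to 0.69% elsewhere. Within ending 1 the share of Ndufb3 no longer differed 2-fold from every class. The core subunit Ndufs8 had a log2 ratio of -0.44 against other cells and was not called there.

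Complex II, succinate dehydrogenase, has no mitochondrial member and also works in the citric acid cycle. Its 4 genes summed to 87 UMIs in acinar cells, 0.85% of nuclear member UMIs against 1.18% to 1.65% in the other classes. Sdhb, the iron-sulfur subunit, had 148 CPM outside acinar markers, with 108 to 157 elsewhere. Sdha, the flavoprotein subunit, had 17 UMIs in acinar cells, too few for a call.

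Complex III, which moves electrons from ubiquinol to cytochrome c, held the nuclear member that set acinar cells apart most. Uqcrq, a small subunit beside cytochrome b, had 701 UMIs in 168 of 270 acinar cells, with up to 36 in a cell. It took 6.83% of the nuclear member UMIs of acinar cells (6.35% to 7.33%), against 1.08% in ductal, 1.53% in endothelial, 1.07% in B and 1.54% in other cells. The share was 6.52% under ending 1 and 9.18% under ending 2. Without the shared barcodes it was 6.74% over both endings and 10.2% under ending 2. Its log2 ratio outside acinar markers was 2.59 (2.19 to 3.05), 2.77 (2.51 to 3.05), 3.69 (3.23 to 4.23) and 3.19 (2.92 to 3.49) over the 4 classes. With all UMIs as the total the ratios were still above 0, at 0.57, 0.76, 1.67 and 1.18.

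The gene lies on the minus strand at chr11:53427922-53430831 (GRCm38, GENCODE M21), where the annotation has no other gene that overlaps it. After thinning each cell to 1000 UMIs, 38.1% of acinar cells kept a Uqcrq UMI, against 13.9% to 29.8% in the other classes at the same depth; acinar markers are part of that depth. Uqcr11, another small complex III subunit, had 1144 CPM in acinar cells, 790 in ductal, 401 in endothelial, 174 in B and 217 in other cells. Uqcrh, the hinge subunit, had 1112 against 864, 555, 845 and 574. The raised share of complex III in acinar cells was therefore not spread evenly over its genes. Uqcrq gave 701 of the 1710 nuclear complex III UMIs of acinar cells. It gave 50 of 484 in ductal, 136 of 961 in endothelial, 37 of 380 in B and 124 of 882 in other cells.

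Complex IV, cytochrome c oxidase, passes electrons to oxygen. Of the 11 nuclear genes tested outside acinar markers, 0 were called against ductal, 1 against endothelial, 2 against B and 2 against other cells, and each of these calls was higher. Of all genes 27.9%, 20.2%, 39.5% and 30.6% were higher in these comparisons. Cox4i1, the widely expressed form of subunit 4, had 1525 CPM in acinar cells and 2086, 969, 788 and 756 in the other classes. Cox8a had 731 against 1141, 743, 681 and 574. Cox4i1 took 4.21% of the nuclear member UMIs of acinar cells and 4.12% to 5.50% elsewhere.

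Complex V makes the ATP. Atp5e, the epsilon subunit of the rotating stalk, had 1967 CPM in acinar cells, with 1035, 422, 594 and 563 in the other classes. Atp5o, a stalk subunit, took 2.31% of nuclear member UMIs in acinar cells and 0.84% to 1.04% elsewhere, and it was the other gene with a share 2-fold higher than in all 4 classes, also within ending 1. The symbol Atp5o stands on 2 overlapping gene models in GENCODE M21, so its count may combine both. Atp5l had 1098 against 872, 666, 497 and 480, and Atp5a1, the alpha subunit, had 230 against 383, 258, 287 and 206. Subunits of 1 complex thus stood from 2.24 to -0.74 on the log2 scale over the 4 comparisons for Atp5o and Atp5a1.

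The c ring of the ATP synthase, which turns as protons pass, is built from 1 mature protein that 3 genes encode, Atp5g1, Atp5g2 and Atp5g3. Atp5g1 gave 53.0% of the family's UMIs in acinar cells (49.1% to 56.8%; 354 of 668 UMIs). It gave 36.8% in ductal, 33.8% in other, 29.6% in B and 27.6% in endothelial cells. Atp5g2 gave the highest share in ductal (41.9%), endothelial (51.7%), B (58.6%) and other cells (48.8%), though in ductal cells its interval overlapped that of Atp5g1, and gave 26.8% in acinar cells. Atp5g3 gave 20.2% in acinar cells and 11.7% to 21.4% elsewhere.

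The preference for Atp5g1 in acinar cells was 53.5% under ending 1 and 48.3% under ending 2 (29 of 60 UMIs). Without the shared barcodes it was 53.2% over both endings and 50% under ending 2 (12 of 24 UMIs). Among other cells, those named mesenchymal (18 cells with at least 5 UMIs of a mesenchymal marker set) had a similar share of 55.6%, on 45 UMIs. T or NK cells had 30.8% and macrophages 32.0%.

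Because the 3 genes encode the same ring protein and differ in where they are used, the bases upstream of their RefSeq start sites are shown, read 5′ to 3′ on the minus strand of GRCm38.p6 and without bases that GENCODE M21 annotates as exon. Capitals mark matches to CCAAT or CACGTG on either strand. The other motifs searched, the nuclear respiratory factor 1 motif, CCGGAAG (an ETS motif) and AAGATGGC (a YY1 motif), have no match in the stretches printed. The regions are chr11:96075671-96075881 for Atp5g1 (211 bases, ending 39 bases before the start), chr15:102671128-102671297 for Atp5g2 (170 bases, ending 80 bases before it) and chr2:73911327-73911576 for Atp5g3 (250 bases).
Atp5g1: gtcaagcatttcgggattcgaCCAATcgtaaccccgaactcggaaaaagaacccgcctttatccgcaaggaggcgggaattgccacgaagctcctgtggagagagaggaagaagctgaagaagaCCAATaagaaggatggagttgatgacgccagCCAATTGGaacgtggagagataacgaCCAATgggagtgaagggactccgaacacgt
Atp5g2: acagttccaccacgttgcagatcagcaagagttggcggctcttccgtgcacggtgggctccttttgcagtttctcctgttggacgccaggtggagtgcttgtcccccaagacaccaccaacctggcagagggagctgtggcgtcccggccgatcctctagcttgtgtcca
Atp5g3: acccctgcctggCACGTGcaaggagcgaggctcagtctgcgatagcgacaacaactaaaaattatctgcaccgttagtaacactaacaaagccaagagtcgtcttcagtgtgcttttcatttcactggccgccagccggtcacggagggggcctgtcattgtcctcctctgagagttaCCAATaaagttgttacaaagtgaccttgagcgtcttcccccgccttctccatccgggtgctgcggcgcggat
The Atp5g1 stretch holds 5 CCAAT matches, of which the pair in CCAATTGG overlaps on opposite strands. The Atp5g3 stretch has 1 CCAAT and 1 CACGTG match, and the Atp5g2 stretch has none. In the full 250 bases before its start Atp5g1 also has 1 CACGTG match, which lies at least in part in the bases left out.

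Nearer its RefSeq start, Atp5g2 has the 1 match to the nuclear respiratory factor 1 motif of the 3 genes, at chr15:102671070-102671099 with 10 flanking bases on each side, and its last base lies 32 bases before the start site. This site falls in the bases left out of the stretch above because of an annotated exon. GENCODE M21 extends Atp5g2 to chr15:102672352, so the site and the printed stretch both lie within its gene model.
Atp5g2 site: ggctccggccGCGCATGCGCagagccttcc
Of 76 promoters of 71 nuclear members in the RefSeq table, 19.7% hold that motif in the 250 bases before the start, as do 3.74% of all 32851 promoters. CCGGAAG is found in 17.1% of member promoters and 6.91% of all, CCAAT in 42.1% and 33.8%, CACGTG in 7.89% and 6.02%, and AAGATGGC in 1.32% and 1.56%. These are matches of letters, not measured binding sites.

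Cox7a2l, a factor that helps join complexes III and IV into supercomplexes, had a low share in acinar cells. It had 66 UMIs in 41 of 270 acinar cells, 0.64% of their nuclear member UMIs. The share was 1.61% in ductal, 2.22% in endothelial, 3.30% in other and 3.74% in B cells. Outside acinar markers its log2 ratio was -1.39 (-1.89 to -0.89), -1.16 (-1.59 to -0.76), -1.50 (-1.95 to -1.06) and -1.30 (-1.72 to -0.91) over ductal, endothelial, B and other cells. It was called lower against all 4 classes, also within ending 1, where its share was 0.68%. There it was the 1 nuclear member of 63 with a share 2-fold lower than in all 4 classes, as were 8.96% of all genes, and 2 members were 2-fold higher (20.3% of all genes). Within the COX7A family, Cox7a2l gave 30% of acinar UMIs (66 of 220), 46.6% of ductal, 46.9% of endothelial, 62.8% of other and 68.6% of B UMIs, and 74.5% in T or NK cells. Cox7a2 gave nearly all the rest, since Cox7a1, the heart and muscle form, had 4 UMIs in all.

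The other assembly factors and rare genes were too thinly counted for a call in these cells. The 7 Ndufaf genes, which help assemble complex I, had 8 to 56 UMIs each over all cells. Cox6a2, the muscle form of subunit 6a, had 18 UMIs in 3 cells, while Cox6a1 gave all 261 COX6A UMIs of endothelial cells and all 108 of ductal cells. Cox6b2 had 16 UMIs in 14 cells.

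Cox4i2 and Ndufa4l2, 2 members known to be raised under low oxygen, had UMIs in few cells. Cox4i2, the lung and hypoxia form of subunit 4, had 45 UMIs in 11 cells, 6 of them endothelial and 3 mesenchymal. It had 0 UMIs among 432 COX4 family UMIs in acinar cells, with an exact upper bound of 0.85% of the family, and 0 in ductal, B, T or NK cells and macrophages. It gave 5.68% of the COX4 family in endothelial cells and 25.8% in mesenchymal cells (15.5% to 38.5%). Ndufa4l2, a relative of the complex IV subunit Ndufa4, had 80 UMIs in 23 cells, 9 endothelial and 12 mesenchymal. It gave 12.5% of the NDUFA4 family in endothelial cells and 61.1% in mesenchymal cells (46.9% to 74.1%), and 1 UMI came from acinar cells.

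The pair shared cells. Of the 11 cells with Cox4i2, 8 also had Ndufa4l2. The genes Rgs5, Pdgfrb, Kcnj8, Abcc9, Notch3 and Cspg4, which are known from the mural cells that wrap small vessels, were looked up after these values had been seen. The 8 cells held 98 of all 173 Rgs5 UMIs, 35 of 57 Pdgfrb UMIs, 33 of 35 Kcnj8 UMIs and 20 of 31 Notch3 UMIs. The 9 endothelial cells with Ndufa4l2 had 28 Pdgfrb UMIs, and the 152 without it had 3. These 9 cells were deeper, with a median of 3788 UMIs against 1868, and whether they are doublets was not tested.

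The mitochondrial genome is read as long transcripts that are cut into single messages, so the make-up of its 13 members was compared as shares of mitochondrial UMIs. Acinar cells had more of mt-Co3, a core subunit of complex IV, with 25.2% (24.4% to 25.9%) against 18.8% in ductal, 16.2% in endothelial, 19.5% in B and 19.1% in other cells. They had less mt-Atp6, a subunit of the proton channel of complex V, with 17.9% against 20.3% to 24.8%. They also had less mt-Nd1 of complex I, with 7.49% (7.05% to 7.95%) against 8.02% (7.47% to 8.59%) in ductal and 10.2% to 11.1% in the remaining cells, so the acinar and ductal intervals overlapped. The shares of mt-Co2 (10.7% against 8.84% to 9.78%) and mt-Cytb (10.7% against 9.81% to 10.6%), the complex III subunit cytochrome b, differed little. The light-strand gene mt-Nd6 had 14 UMIs in acinar cells and 1 to 17 in the other classes.

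The ending again moved with part of this pattern. mt-Co3 took 25.7% of mitochondrial UMIs in acinar cells of ending 1 and 14.9% under ending 2 (13.9% without the shared barcodes), while in cells outside the acinar class it took 18.1% and 19.8%. Acinar cells were thus above the rest in mt-Co3 under ending 1. Under ending 2 their value was below the rest, but the intervals overlapped (12.3% to 17.8% and 17.1% to 22.8%). mt-Atp8 took 1.38% under ending 1 and 7.66% under ending 2 in acinar cells, and 0.77% and 4.98% in cells outside that class (443 and 15 cells). Within ending 1 the summed share of mt-Atp8 was higher in acinar cells (1.38%, 1.19% to 1.61%) than in ductal (0.63%), endothelial (0.79%), B (0.64%) and other cells (0.93%). The acinar value was uneven over depth. Cells with 5000 or more UMIs gave 108 of the 173 mt-Atp8 UMIs of acinar cells of ending 1, at a share of 2.15% (1.77% to 2.59%). The other classes were not split by depth for this share. Without the shared barcodes the acinar share of mt-Atp8 under ending 2 was 6.52%. mt-Nd5 had 0.77% and 4.05% in acinar cells, and 0.71% and 1.79% (0.98% to 2.98%) outside that class. mt-Nd4l had 0.70% and 3.18% in acinar cells, while outside the class its 0.49% and 0.77% (0.28% to 1.66%) were not told apart. mt-Nd1 was lower in acinar cells than outside the class under ending 1 (7.26% and 10.2%) but not under ending 2 (11.7% and 11.4%).

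**Figure D5:**
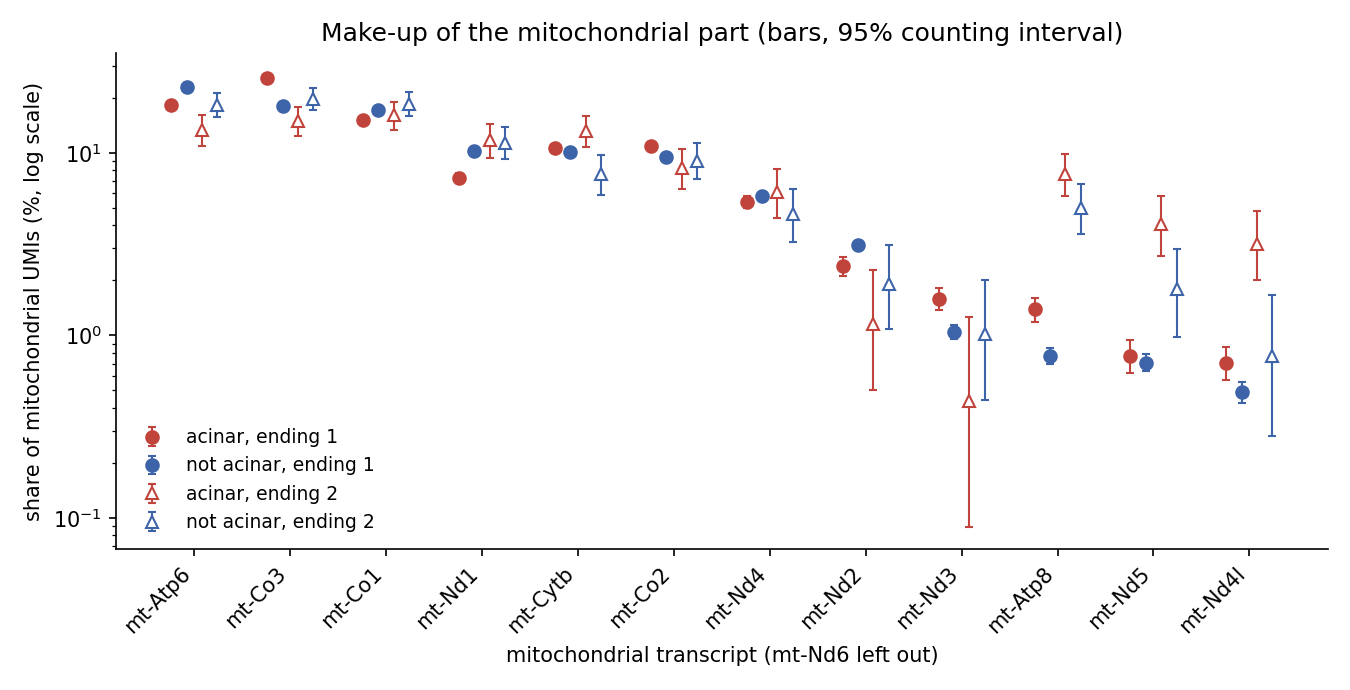
Share of mitochondrial UMIs (y axis, %, log scale) taken by each of 12 mitochondrial transcripts (x axis) in acinar cells and in all cells outside that class, by barcode ending, with 95% counting intervals. mt-Atp8 stands at 7.66% and 4.98% under ending 2 and at 1.38% and 0.77% under ending 1.

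For 2 pairs of these genes the count itself is uncertain, because their reading frames overlap and they are carried on 1 shared message. The last 43 bases of mt-Atp8, an ATP synthase subunit, are also the first 43 of mt-Atp6, at chrM:7927-7969 on the plus strand of GRCm38, and mt-Nd4l and mt-Nd4 overlap by 7 bases. The end of mt-Atp8 is shown with the shared bases in capitals, to show the stretch that belongs to both genes.
mt-Atp8 end: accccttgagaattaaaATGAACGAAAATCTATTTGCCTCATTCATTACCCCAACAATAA
How the authors' counting treated such tags was not stated in the labels.

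Each mixed complex can be given a balance of its own. For complex IV, the mitochondrial share was 75.8% in acinar cells and 71.8% to 81.5% in the other classes, with endothelial cells below acinar cells. For complex I it was 43.6% against 52.7% to 65.5%. For complex III it was 45.2% against 61.6% to 69.9%, and for complex V 46.0% against 62.2% to 68.7%. In these sums over cells, the low balance of acinar cells was therefore seen in complexes I, III and V. In complex IV acinar cells lay within the range of the other classes. For complex III, Uqcrq alone gave 701 of the 1710 nuclear UMIs of acinar cells. The balances of single complexes were not split by depth, barcode ending or weight per cell.

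Lists of other genes of mitochondrial metabolism were set beside the members, outside acinar markers. Of 28 tested mitochondrial ribosome genes, which translate the mitochondrial members, 2 were higher and 5 lower in acinar than in endothelial cells, with a median log2 ratio of 0.09, and against other cells 7 of 27 were higher and 0 lower (median 0.59), where 30.6% of all genes were higher and 25.1% lower. Mrpl52 had 448 CPM in acinar cells and 538, 236, 297 and 250 in the other classes. Of the list for mitochondrial protein import, 2 of 10 were higher and 1 lower against endothelial cells, and Timm13 had 406 against 391, 215, 200 and 139. In that comparison 20.2% of all genes were higher and 43% lower.

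Among electron carriers and ATP exporters, 3 of 10 genes were higher and 2 lower against endothelial cells, beside 20.2% and 43% of all genes. Slc25a4, the ADP and ATP carrier of muscle and other tissues, had 35.3 CPM in acinar cells and 139, 329, 123 and 196 in the other classes, while its paralog Slc25a5 had 325 against 236, 289, 369 and 324. Usmg5, a small membrane subunit of the ATP synthase that the symbol rule does not reach, had 632 against 538, 300, 195 and 252. Atpif1, the ATP synthase inhibitor, had 219 in acinar cells and 904 in ductal cells. Of the citric acid cycle genes only 2 to 4 could be tested per comparison, and Suclg1 was called higher against endothelial, B and other cells. Against ductal cells 2 of 3 were lower, Idh2 with 91.8 against 285 CPM and Mdh2 with 117 against 293, where 24.8% of all genes were lower.

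Glycolysis genes encode the route to ATP without oxygen. Of those tested outside acinar markers, 4 of 5 were lower against ductal, 5 of 8 against endothelial, 2 of 5 against B and 3 of 7 against other cells, and 0 were higher. Of all genes 24.8%, 43%, 22.3% and 25.1% were lower, and few glycolysis genes could be tested. Their medians were -1.37, -1.12, -0.70 and -0.74. Gapdh had 201 CPM in acinar cells, with 652, 653, 584 and 406 in the other classes, and Eno1 had 14.1 against 766, 271, 159 and 209. Genes that copy and transcribe mitochondrial DNA had 71 UMIs in acinar cells, and Slirp, which stabilises mitochondrial messages, was the 1 that could be tested. It had log2 ratios of -0.97, -0.49, 0.32 and 0.46. Tfam, which packages and transcribes that DNA, had 7 UMIs in acinar cells.

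Within the other cells, the balance split by cell kind. The 16 erythroid cells (at least 10% of UMIs from globin genes) had 89.2% (86.0% to 91.9%), with only 579 nuclear and 4787 mitochondrial CPM. Red cell precursors lose their mitochondria as they mature. Macrophages (24 cells) had the lowest value of the kinds named, 56.4% (54.7% to 58.2%), close to acinar cells. T or NK cells (77 cells) had 63.8%, mesenchymal cells (18 cells) 61.6% and the 29 cells that met no rule 72.1%, with a median over single cells of 63.1%. Without the erythroid cells the class stood at 64.3%, but its nuclear level rose from 17076 to 20607 CPM over all UMIs.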

How the data were processed

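Cells were sorted from mouse pancreas and sequenced with 10x Genomics chemistry, per the labels' protocols. The authors deposited 1 table of UMI counts per gene and cell (14793 gene rows, 728 cells), and Cell Ranger and mm10 are named per the submitters' processing notes, with no version, role or filter stated there. Total counts were 2177260 under barcode ending 1 and 175748 under ending 2. How long after tamoxifen the cells were sorted was not stated in the labels. The labels name 2 replicates, but cells carry no map to them, so no p-value was computed.

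No further filter on cells was applied and no doublet caller was run; cells that meet more than 1 class rule were counted instead. Members and gene lists were chosen with earlier results of these data known. Rows with the same symbol were summed. Levels are in counts per 1000000 (CPM), computed from the deposited counts, over all UMIs or without 31 acinar marker genes. Log2 ratios add a prior of 0.5 counts. Genes needed 50 UMIs over both classes to be compared, and 2-fold was the limit for a call. Intervals are exact (Clopper-Pearson for shares and ratios, Poisson for levels) at 95%, and cover counting error only. Thinning drew 1000 UMIs per cell without replacement (seed 1).

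Genes were named by rule: all mitochondrial members, the 2 nuclear members with most UMIs in each complex, the 3 highest and 3 lowest ratios in each comparison, tissue isoforms, and, in other lists, the gene with most UMIs and the extreme ratios; genes named beyond it were chosen after their values were seen. A gene that the rule names is not reported here. Among members, 101 of 102 matched GENCODE M21, and 19 overlap another gene on the same strand. Promoters are from RefSeq (GRCm38.p6). The alternatives were other class rules, barcode endings, equal weights per cell, thinning, mitochondrial limits, subunits alone and other totals. The ratio script was tested on simulated data. Python 3.11.15 was used with numpy 2.4.6, pandas 2.3.3, scipy 1.17.1 and matplotlib 3.10.9.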

Additional observations from a re-analysis of the deposited data

How the results depend on the processing

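No paired analysis was possible because the cells could not be tied to the 2 labelled replicates, and leaving out a replicate could not be run for the same reason. Results were recomputed with barcode ending 2 alone for acinar cells only, since every other class had fewer than 10 such cells. With 1 pooled sample, depth per cell and the barcode ending limit every comparison, and acinar cells hold few member UMIs each. Counting cells that meet 1 class rule only (21 results), a floor of 20 UMIs (8 results) and genes at 0 set to their bound (8 results) moved no result beyond its interval or 1.5 times its count. Where values moved, the cause was not tested.

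The balance of acinar cells (56.2%) was 57.9% with ending 1 alone, 36.8% with ending 2 alone, 58.5% with cells weighted equally, 68.4% after thinning to 1000 UMIs, 53.6% in cells under 15% mitochondrial UMIs and 57.1% without barcodes under both endings. It was 53.3% in cells under 10% mitochondrial UMIs, a limit chosen after seeing the data. The balance of B cells was 70.8% under the 15% limit, 70.7% with equal weights, 72.8% with ending 1 alone, 72.9% with subunits only and 72.8% after thinning. Ductal cells stood at 63.1% under the 15% limit, 63.4% with equal weights, 64.6% with doubled class thresholds, 68.1% with ending 1 alone and 69.8% after thinning. Endothelial cells stood at 60.4% with equal weights and 64.2% with subunits only. Other cells stood at 62.2% under the 15% limit, 65.7% with ending 1 alone, 65.8% with subunits only and 67.8% after thinning.

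The total without acinar markers reversed 6 log2 ratios of acinar over another class: for nuclear members 1.04 over B, 0.62 over endothelial and 1.055 over other cells, and for mitochondrial members 0.0389, 0.19 and 0.54 in the same order. Over ductal cells it gave -0.0641 for nuclear and -0.69 for mitochondrial members. With it, lower nuclear members numbered 10 (ductal), 3 (endothelial), 1 (B) and 1 (other), and higher ones 3, 16, 29 and 25.

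The mitochondrial log2 ratio over B cells was -2.05 under the 15% limit, -1.35 with equal weights, -1.94 with ending 1 alone, -1.34 after thinning and -1.94 without barcodes under both endings. Over ductal cells it was -2.23 with equal weights, -2.64 with doubled thresholds, -2.23 after thinning and -2.67 without those barcodes. Over endothelial cells it was -1.95 under the 15% limit, -1.17 with equal weights, -1.73 with ending 1 alone, -1.15 after thinning and -1.78 without those barcodes. Over other cells it was -1.07 with equal weights, -1.42 with ending 1 alone, -1.07 after thinning, -1.44 without those barcodes and -1.72 without erythroid cells, an alternative added after seeing the data. The nuclear log2 ratio over ductal cells was -2.18 with equal weights, -2.15 with doubled thresholds and -2.14 after thinning, and over endothelial cells -1.49 with equal weights and -1.46 after thinning. Over other cells it was -1.14 with equal weights, -1.01 with doubled thresholds, -0.91 with subunits only, -1.11 after thinning and -1.24 without erythroid cells.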
